A study of Mus musculus with 66 samples.

Results

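The immediate early genes examined here were Fos, Fosl1, Fosl2, Jun, Junb, Jund, Atf3, Egr1, Ier2 and Myc, chosen by their symbols. All 10 were listed in the table of poly(A) (pA) sites made by 3'READS, a method that sequences the 3' ends of polyadenylated RNA, among 15856 genes, and they held 50 of its 59578 sites. The RNA-seq table listed 5 of them (Fos, Fosl1, Fosl2, Jund and Myc) among 9999 genes, so the other 5 were measured by 3'READS alone. The cells were C2C12, a mouse myoblast line that can be induced to form myotubes, here kept as myoblasts and transfected for 48 h with 50 nM of siRNA. The groups were siCtrl, a non-specific control siRNA, and siPaf1, siCdc73 and siSki8, siRNAs against 3 subunits of the Paf1 complex (Paf1C), a complex that travels with RNA polymerase II; Ski8 carries the gene symbol Wdr61. Each assay had 7 libraries, with siCtrl, siPaf1 and siCdc73 each made in batch 1 and in batch 2 and siSki8 made in batch 2 only. All libraries came from the same line and the batches are the only replication, so the p-values measure the spread between these libraries. In bulk RNA, fewer cells that use a gene and less of its RNA per cell cannot be told apart.

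Immediate early genes are switched on within minutes of a growth or stress signal without new protein synthesis, and many of them carry RNA polymerase II paused just after the start site, so that release of the pause sets their output. Most of them code for transcription factors. Fos, Fosl1 and Fosl2 pair with Jun, Junb or Jund through leucine zippers to form AP-1, Atf3 is a related zipper protein, Egr1 is a zinc finger factor, Ier2 is a short nuclear protein and Myc pairs with Max to drive growth genes. Their mRNAs are mostly short-lived, and AU-rich elements built around ATTTA in the 3' untranslated region (UTR) take part in that decay.

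The libraries held 2796693 to 8160386 reads in genes by RNA-seq and 5290791 to 14311581 reads at sense pA sites by 3'READS. Levels are given in CPM, reads scaled to a common library size after TMM, a scaling that sets most genes level between libraries. Each siRNA target fell in its own knockdown, by 2.38 (Paf1), 2.56 (Cdc73) and 4.16 (Wdr61) on the log2 scale in RNA-seq and by 2.63, 2.06 and 3.65 in 3'READS with the batch as a block. Of the myoblast markers, Des, Cdh15 and Myf5 were present in every library, Myod1 was not listed in RNA-seq and stayed under 1 CPM by 3'READS, and Chrdl2 was at 0 in all 7 RNA-seq libraries. The markers of other cell types summed to 15.01 to 145.5 CPM in RNA-seq, 5 of 7 listed, and to 1.65 to 18.31 CPM in 3'READS, 6 of 7 listed. Pparg, a nuclear receptor of fat cells, made up most of that sum in 6 of the 7 RNA-seq libraries, with 41.79 and 68.11 CPM in siCtrl, 13.52 and 11.86 CPM in siPaf1, 35.45 and 46.27 CPM in siCdc73 and 136.5 CPM in siSki8, and with the batch as a block its log2 fold change was -2.03 ± 0.29 (SE) in siPaf1 (edgeR adjusted p = 2.43e-06) and 1.17 ± 0.32 in siSki8 (0.0299). Krt8, a keratin of simple epithelia, made up 18.4 and 61.6 CPM of that sum in siCdc73 and 8.29 CPM in siSki8 in RNA-seq, against 0.14 and 1.01 CPM in siCtrl, and the part of both genes in the results was not tested.

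Most of the members are compact genes, but Fosl2 spans 21.36 kb and Atf3 13.04 kb. In the mm9 annotation their median length was 3.58 kb, against 15.5 kb for all coding genes, and 4 of the 10 (Ier2, Jun, Junb and Jund) had no intron, against 13.2% of all coding genes. The bases just before the most used 3' end of 8 members are shown because their levels by 3'READS rest on reads at these ends, with a more proximal end of Fosl2 beside its most used one. Each window of 30 bases ends 5 bases before the pA site, is written on the strand of the gene with mm9 coordinates, and has in capitals the polyadenylation hexamer found, which was the canonical AATAAA, the common variant ATTAAA or the rarer variant AGTAAA (added to the search, like TATAAA, after the sequences were seen).
Fos (chr12:86818190-86818219, mm9, + strand): gacattgtcAATAAAagcatttaagttgaa
Fosl2 proximal (chr5:32456054-32456083, mm9, + strand): ggtggtccagatAGTAAAgcgcttttattt
Fosl2 distal (chr5:32460083-32460112, mm9, + strand): aggaaagaacatATTAAAaacttattttcc
Jun (chr4:94716294-94716323, mm9, - strand): gtttaccatttgtAATAAAgtatataattt
Junb (chr8:87500818-87500847, mm9, - strand): ttgaatctatttaAGTAAAaaaaaaattgt
Jund (chr8:73224481-73224510, mm9, + strand): ggttttgtgttttcAGTAAAgtcttcgtta
Atf3 (chr1:192994180-192994209, mm9, - strand): tcaacatAATAAAtatcggaacaaaacctg
Ier2 (chr8:87185238-87185267, mm9, - strand): tgtcagctaggaaAATAAAgaccatcggtg
Myc (chr15:61821776-61821805, mm9, + strand): aactttAATAAAacgtttataacagttaca
The hexamer AATAAA was present at Fos, Jun, Atf3, Ier2 and Myc, AGTAAA at Junb, Jund and the proximal Fosl2 site, and ATTAAA at the distal Fosl2 site. Each of 38550 sites of the last exons of all genes was assigned a single hexamer within 40 bases of the site, or none. AATAAA was assigned to 43.5%, ATTAAA to 15.3%, AGTAAA to 3.79%, TATAAA to 4.49% and none to 32.9%. A site with several of these hexamers counts under only a single hexamer. The share of sites that hold a given hexamer can therefore be higher than the value given. The letters are a description of these windows and were not tested.

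ATTTA was dense in several of the 3' UTRs. Fos held 4 copies in 818 bases, 4.89 per kb, Myc 4.49 per kb, Junb 4.12, Jun 3.24 and Atf3 2.52, against a median of 1.1 per kb over 19271 genes. Ier2 held 0 copies in 758 bases. Fos alone of the 10 had 2 overlapping copies, a form found in 4.91% of all 3' UTRs, and it is shown with both copies in capitals.
Fos AU-rich element (chr12:86818040-86818069, mm9, + strand): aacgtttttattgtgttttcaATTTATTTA

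The promoters of 6 members (Atf3, Fos, Fosl2, Jun, Junb and Jund) were matched by symbol to RefSeq on GRCm38.p6, and Egr1, Fosl1, Ier2 and Myc were not. The 120 bases up to the start are shown for the 4 of them with a match to a searched motif, which stands in capitals. The motifs were searched on both strands in the 250 bases before the start. They were the CREB and ATF site TGACGTCA and its short form TGACG (which lies within it), the Jun site TGACATCA, the AP-1 site TGANTCA, the NF-Y site CCAAT, the TATA box written as TATAAA, and the CArG box.
Fos promoter (chr12:85473770-85473889, GRCm38.p6, + strand): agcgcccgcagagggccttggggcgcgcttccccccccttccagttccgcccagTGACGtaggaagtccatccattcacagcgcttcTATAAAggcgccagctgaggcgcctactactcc
Jun promoter (chr4:95052223-95052342, GRCm38.p6, - strand): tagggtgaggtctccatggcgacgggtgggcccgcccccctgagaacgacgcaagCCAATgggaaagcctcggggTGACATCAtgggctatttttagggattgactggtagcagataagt
Junb promoter (chr8:84978749-84978868, GRCm38.p6, - strand): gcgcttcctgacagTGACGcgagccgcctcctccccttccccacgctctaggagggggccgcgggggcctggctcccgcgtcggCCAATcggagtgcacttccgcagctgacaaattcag
Atf3 promoter (chr1:191183334-191183453, GRCm38.p6, - strand): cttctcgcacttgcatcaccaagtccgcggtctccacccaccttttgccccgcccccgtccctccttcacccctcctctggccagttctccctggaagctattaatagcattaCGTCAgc
TGACG, the short form of the site of CREB and ATF factors, started at -129 and -66 in Fos, at -106 in Junb and, on the reverse strand, at -7 in Atf3, and was present in 17.9% of 27025 promoters. Fos had TATAAA at -33 (13% of promoters), Jun had TGACATCA at -45 (3.02%), and CCAAT was found at -65 in Jun and at -36 in Junb (34.5%). TGANTCA (6.87% of promoters), TGACGTCA (1.62%) and the CArG box, bound by SRF (1.4%), were not among the letters of these 6 windows.

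**Figure D1:**
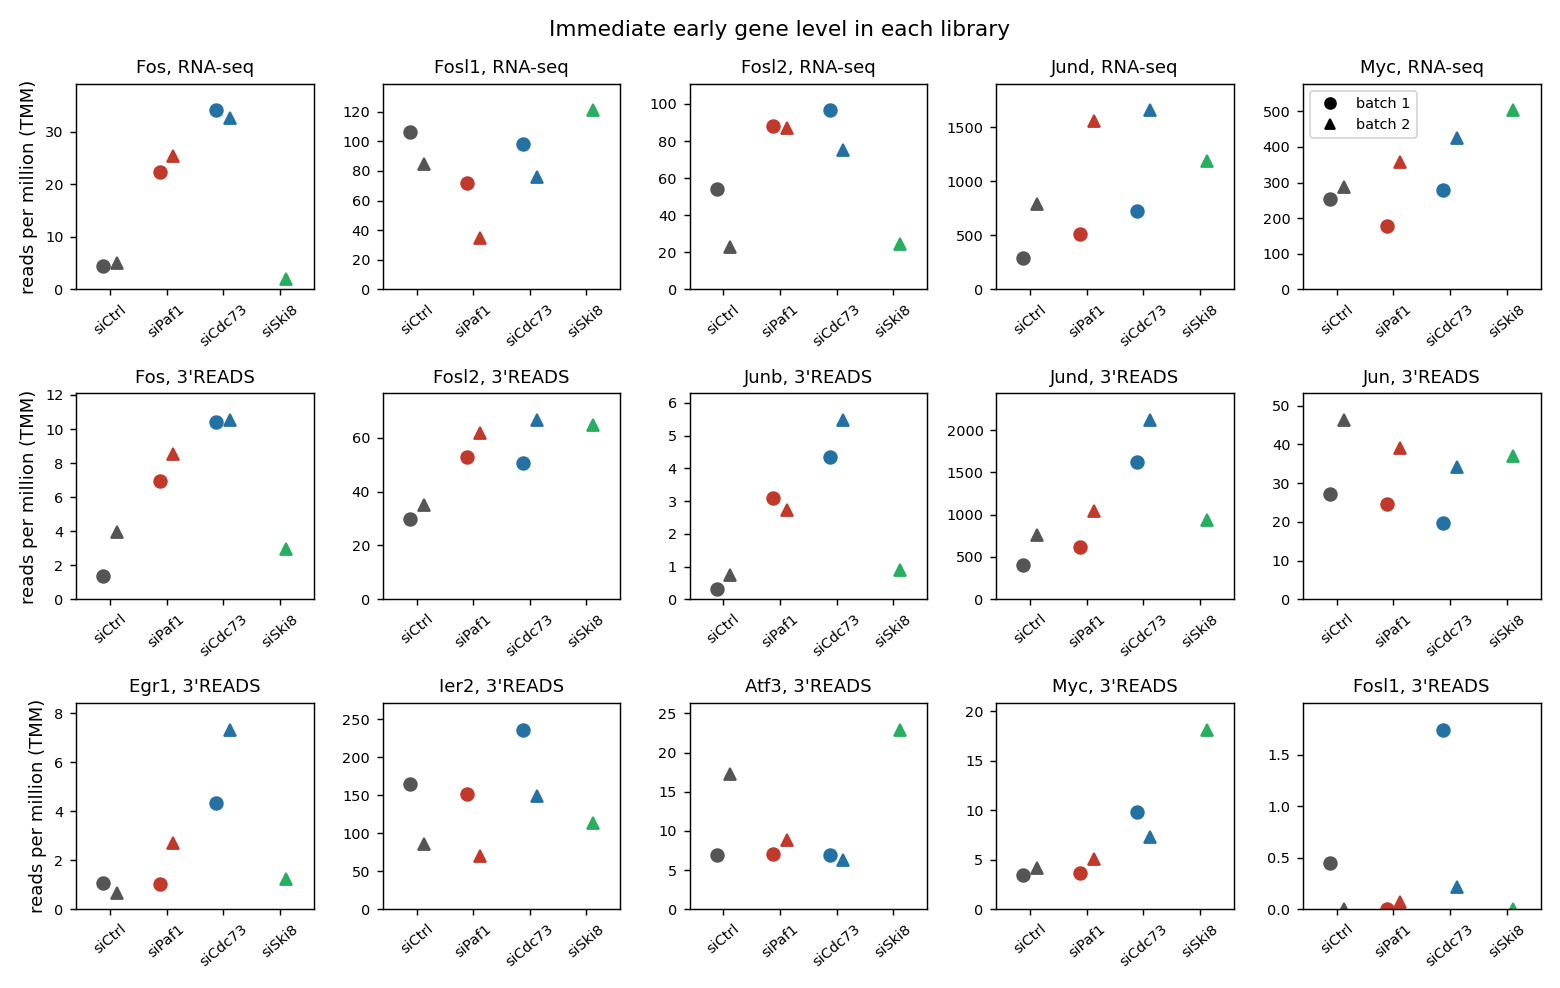
Level of each immediate early gene in each library, in CPM after TMM scaling (y axis, linear from 0, its own range per panel), by siRNA group (x axis), with batch 1 as circles and batch 2 as triangles; the top row is RNA-seq and the rows under it are 3'READS gene totals. Fos and Fosl2 in both assays and Junb in 3'READS stood above both siCtrl libraries in all 4 siPaf1 and siCdc73 libraries.

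Fos, Fosl2 and Junb were the members that separated siPaf1 and siCdc73 from siCtrl. All 4 siPaf1 and siCdc73 libraries lay above both siCtrl libraries for 2 of the 5 members in RNA-seq (Fos and Fosl2), against 13.1% of all genes tested, and for 3 of the 10 in 3'READS (Fos, Fosl2 and Junb), against 11.8%. In 3'READS, Jund, Egr1 and Myc were above siCtrl in both siCdc73 libraries but not in both siPaf1 libraries, and Jun, Ier2 and Atf3 overlapped siCtrl in both knockdowns. Both siCdc73 libraries were thus above both siCtrl libraries for 6 of 10 members, against 22.8% of all genes tested. For siPaf1 this held for 3 of 10, against 21.7%. The comparisons with siCtrl share the same 2 control libraries.

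The number of members called depended on whether the batch entered the fit. Without the batch, as the design sets it, edgeR's quasi-likelihood test called 0 members at an adjusted p under 0.05 and 0% of all genes for siPaf1, siCdc73 and siSki8 and for siPaf1 against siCdc73, in both assays. At an unadjusted p under 0.05 the members past the threshold were 2 of 5 for siPaf1, 2 for siCdc73 and 0 for siSki8 in RNA-seq, and 2, 5 and 1 of 10 in 3'READS. Of all genes tested, 1156, 1377 and 361 of 6521 passed it in RNA-seq and 1703, 1929 and 419 of 12579 in 3'READS. DESeq2 without the batch called 1 member in RNA-seq for siPaf1 and 1 for siCdc73, Fos in both (369 and 519 of the 9999 genes listed). In 3'READS it called 2 for siCdc73, Junb and Jund (628 of the 15856 genes listed), and 0 for siPaf1 (441). With the batch as a block, which the labels give, 4 of 5 members were called for siPaf1 in RNA-seq (32.5% of all 6521 genes), 3 for siCdc73 (39.9%) and 0 for siSki8 (5.41%). In 3'READS the block gave 3 of 10 for siPaf1 (18.8% of all 12579 genes), 5 for siCdc73 (22.5%) and 0 for siSki8 (0.151%). The median log2 fold change of the members was 0.89, 1.19 and 0.59 in RNA-seq for siPaf1, siCdc73 and siSki8, against 0.02, -0.02 and 0.02 for all genes, and 0.37, 1.44 and 0.39 in 3'READS, against 0.08, -0.02 and -0.05. For siSki8, whose library has no replicate, the block gave 0 calls and DESeq2 gave 0. With the block 2 members were at an unadjusted p under 0.05 in each assay, beside 1342 of 6521 and 1464 of 12579 genes. In what follows, rose and fell are used of calls with the batch as a block, log2 fold changes are from that fit with their standard error (SE), and the adjusted p without the batch is given beside them.

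**Figure D2:**
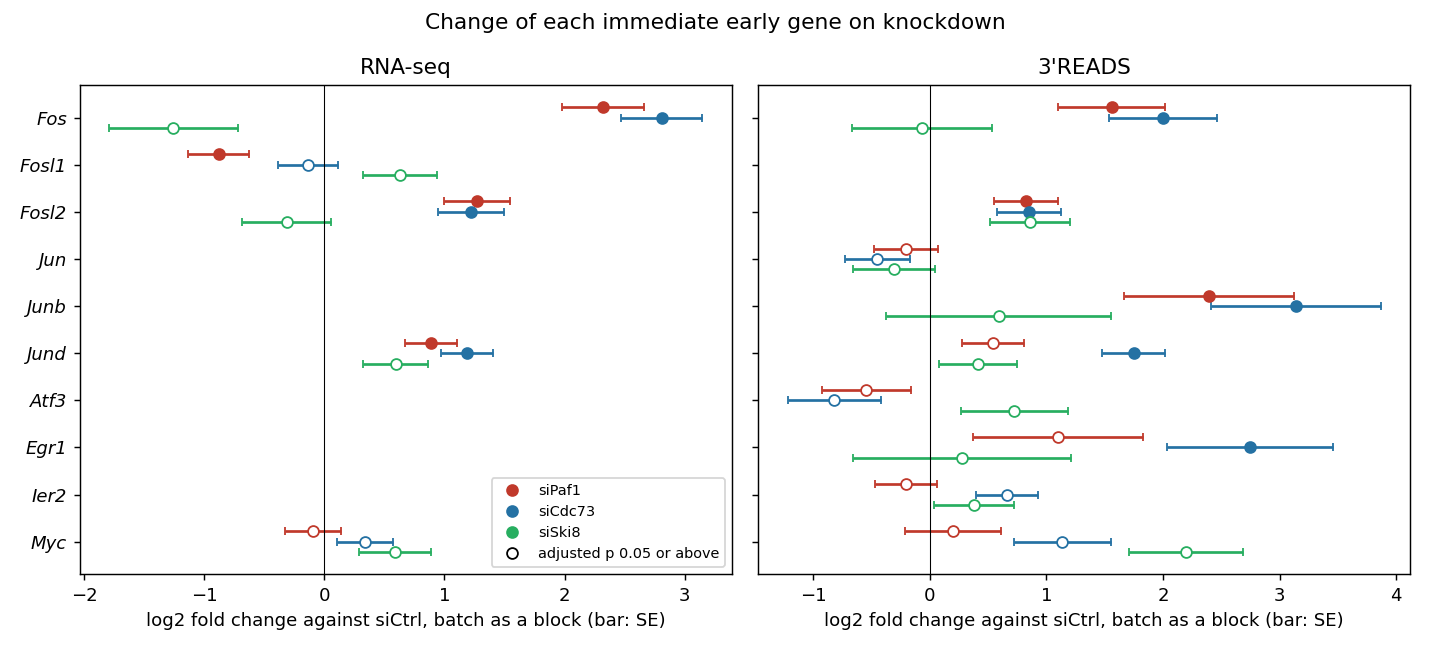
Log2 fold change of each member against siCtrl (x axis), with the batch as a block and bars for the SE, for siPaf1, siCdc73 and siSki8 in RNA-seq (left) and 3'READS (right); filled points have an adjusted p under 0.05. Fos and Fosl2 are filled for siPaf1 and siCdc73 in both panels, no siSki8 point is filled, and Fosl1 is left out on the right because it held 15 reads in all.

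Fos, the founding AP-1 subunit and a classic serum-response gene, rose in both knockdowns and both assays. In RNA-seq its level was 4.47 CPM in the batch 1 siCtrl library and 5.05 CPM in that of batch 2 (all pairs of values are given in this order), 22.29 and 25.47 CPM in siPaf1, 34.06 and 32.55 CPM in siCdc73 and 2.04 CPM in siSki8. The 4 siPaf1 and siCdc73 libraries were all above siCtrl with no overlap, and the siSki8 library was the lowest of the 7. The log2 fold change was 2.32 ± 0.34 (SE) for siPaf1, 4.99-fold (edgeR adjusted p = 4.17e-06, and 0.0835 without the batch), and 2.81 ± 0.34 for siCdc73, 7.01-fold (1.54e-07, and 0.0705 without the batch). The change was alike in the batches, 2.23 and 2.26 for siPaf1 and 2.83 and 2.61 for siCdc73 on the log2 scale, and the calls remained whichever library was left out. For siSki8 the value was -1.26 ± 0.54 and did not pass the threshold (edgeR adjusted p = 0.172).

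By 3'READS, Fos ended at 1 main site, chr12:86818224 (mm9), 1 base past the annotated end of the gene, which held 455 of its 456 reads. Its reads numbered 9 and 42 in siCtrl, 54 and 129 in siPaf1, 48 and 148 in siCdc73 and 26 in siSki8, or 1.35, 3.97, 6.97, 8.53, 10.42, 10.51 and 2.96 CPM. As in RNA-seq, the siPaf1 and siCdc73 libraries were above both siCtrl libraries, which here differed from each other by more than the siPaf1 or the siCdc73 pair did. The log2 fold change was 1.56 ± 0.46 (SE) for siPaf1 (edgeR adjusted p = 0.0269, and 0.339 without the batch) and 2.00 ± 0.46 for siCdc73 (0.00614, and 0.215 without the batch). These calls rested on the batch 1 siCtrl library with its 9 reads: without it the values were 1.03 (adjusted p = 0.257) and 1.46 (0.0846).

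Fosl2, an AP-1 subunit of the Fos family with a long 3' UTR, rose as a gene total in both assays. In RNA-seq, which counted coding reads, it stood at 54.23 and 22.7 CPM in siCtrl, at 88.3 and 86.89 CPM in siPaf1, at 96.45 and 75.31 CPM in siCdc73 and at 24.45 CPM in siSki8. The knockdown libraries were above both siCtrl libraries, with siCtrl of batch 1 about midway between them and siCtrl of batch 2. The log2 fold change was 1.27 ± 0.28 (SE) for siPaf1 (edgeR adjusted p = 0.00067, and 0.251 without the batch), 1.22 ± 0.27 for siCdc73 (0.000726, and 0.22) and -0.31 ± 0.37 for siSki8 (0.671). Without the batch 2 siCtrl library the first 2 were 0.78 (adjusted p = 0.151) and 0.75 (0.125), no longer called. In 3'READS the gene totals were 29.85 and 34.98 CPM in siCtrl, 52.79 and 61.98 CPM in siPaf1, 50.81 and 66.51 CPM in siCdc73 and 64.61 CPM in siSki8, so that here the siSki8 library was as high as the other knockdowns. The log2 fold changes were 0.82 ± 0.27 (edgeR adjusted p = 0.0446, and 0.401 without the batch), 0.85 ± 0.27 (0.0343, and 0.348) and 0.86 ± 0.34 (0.326, and 1). The siPaf1 and siCdc73 calls were each lost in 4 of the 7 fits that left out 1 library, namely without either siCtrl library or either library of the knockdown itself, with values of 0.78 to 0.87 and 0.75 to 0.92.

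**Figure D3:**
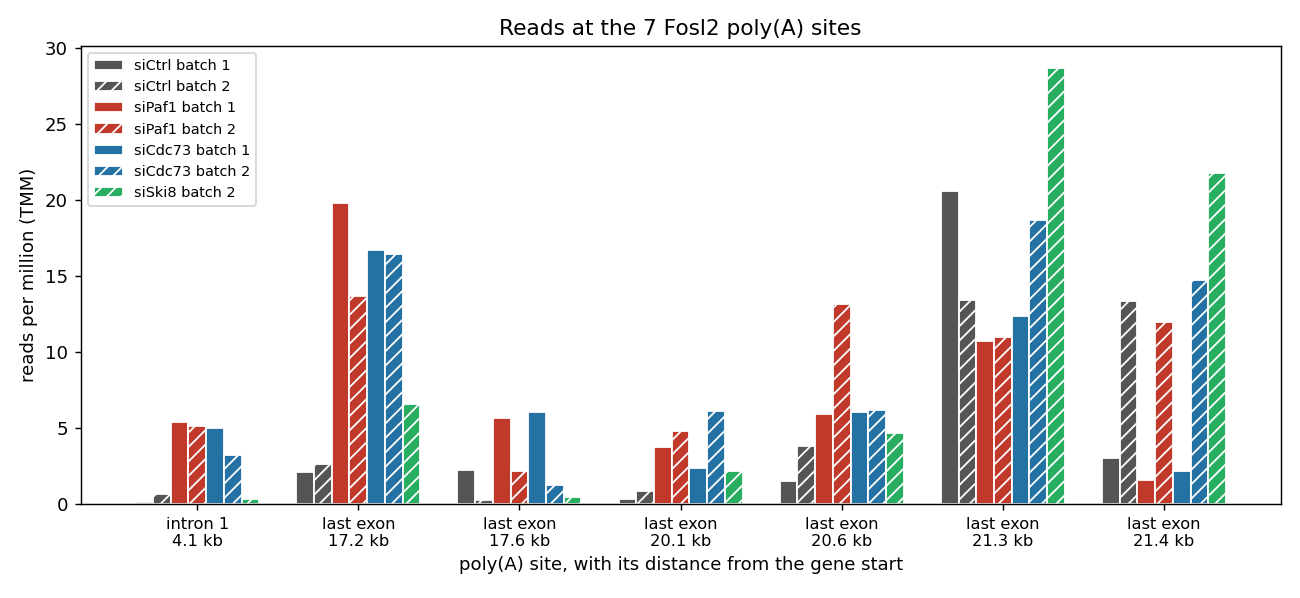
CPM after TMM scaling (y axis) at each of the 7 Fosl2 pA sites, placed by their distance from the gene start (x axis labels), with 1 bar per library coloured by siRNA group and hatched for batch 2. The intronic site and the last-exon site at 17.2 kb are higher in the 4 siPaf1 and siCdc73 libraries than in the siCtrl and siSki8 libraries.

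The proximal Fosl2 end held a larger share of reads in siPaf1 and siCdc73. The 2 most used sites of its last exon over all libraries, chr5:32456088 and chr5:32460117 (mm9, + strand), lie 4029 bases apart in the 3' UTR, and 8 copies of ATTTA lie between them. The proximal site was among these 2 only through the siPaf1 and siCdc73 libraries: it held 768 reads in all against 762 at chr5:32460213, but 14 and 28 in siCtrl and 58 in siSki8 against 20 and 141 in siCtrl and 191 in siSki8 there. The pair was thus picked in part by the difference, which is given as a description with no test. The proximal site took 9.27% and 16.5% of the reads at these 2 sites in siCtrl (14 of 151 and 28 of 170), 64.8% and 55.5% in siPaf1 (153 of 236 and 207 of 373), 57.5% and 46.8% in siCdc73 (77 of 134 and 231 of 494) and 18.7% in siSki8 (58 of 310). The lowest siPaf1 or siCdc73 share was 46.8%, and the highest siCtrl share 16.5%. In CPM, the proximal site went from 2.1 and 2.65 in siCtrl to 19.75 and 13.69 in siPaf1 and 16.72 and 16.4 in siCdc73, while the distal one stood at 20.55 and 13.42, 10.71 and 10.98, and 12.38 and 18.67. With the block the log2 change of proximal against distal reads was 3.36 for siPaf1, 2.87 for siCdc73 and 0.73 for siSki8, and without the batch 1 siCtrl library, with its 14 proximal reads, the first 2 were 2.64 and 2.16.

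Fosl2, Jun and Junb were the 3 members with 2 usable last-exon sites. Over all 4567 such genes edgeR called 6.79%, 4.29% and 0.307% for siPaf1, siCdc73 and siSki8 with the block and 0% without it, and the median log2 change of this ratio was 0.30, 0.41 and 0.40. Jun and Junb were not called in either fit.

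Fosl2 also used an end in its first intron. This site, chr5:32442977 (mm9), lies 4.13 kb into the gene, upstream of most of the coding sequence, and the 100 bases around it are shown because it is the intronic end with most reads among the members; the capitals mark TATAAA, a rare hexamer variant.
Fosl2 intron 1 (chr5:32442918-32443017, mm9, + strand): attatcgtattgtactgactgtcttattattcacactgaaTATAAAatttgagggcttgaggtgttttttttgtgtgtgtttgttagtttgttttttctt
It held 1 and 7 reads in siCtrl, 42 and 78 in siPaf1, 23 and 45 in siCdc73 and 3 in siSki8. As a share of all sense reads of the gene this was 0.502% and 1.89%, 10.3% and 8.32%, 9.83% and 4.8%, and 0.528%, so that the 4 siPaf1 and siCdc73 libraries all lay above the other 3. The site passed the minimum of 5% of the reads of the gene, with 199 of 3654 reads or 5.45%, only through the libraries in which it was high, so its change is also given with no test. Against the reads of the last exon the log2 change with the block was 2.90 for siPaf1, 2.41 for siCdc73 and -1.18 for siSki8, against a median over all 1766 genes with such a site of 0.74, 0.97 and -0.09. Without the batch 1 siCtrl library and its 1 intronic read the first 2 were 2.07 and 1.59. Of all such genes, edgeR called 23%, 23.2% and 0.113% with the block and 2.38%, 4.13% and 0% without it. The other members held at most 13 reads over the 7 libraries at intronic or internal exon sites.

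**Figure D4:**
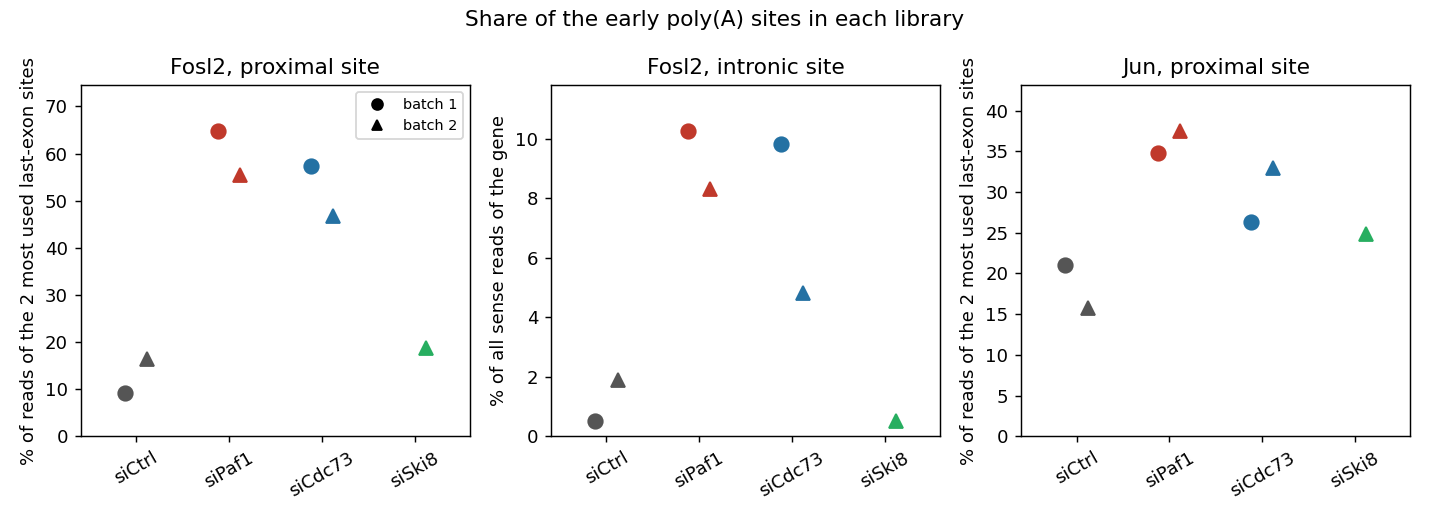
Share of reads at the early pA site in each library (y axis, %), by siRNA group (x axis), with batch 1 as circles and batch 2 as triangles; the left and right panels are the proximal of the 2 most used last-exon sites of Fosl2 and Jun, and the middle panel is the intronic site among all sense reads of Fosl2. For Fosl2 the proximal share is 46.8% to 64.8% in siPaf1 and siCdc73 and 9.27% to 18.7% in siCtrl and siSki8.

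Fosl1, the third Fos family member, fell in siPaf1 in RNA-seq. In RNA-seq it stood at 106.1 and 84.6 CPM in siCtrl, at 72.05 and 34.9 CPM in siPaf1, at 98.3 and 75.95 CPM in siCdc73 and at 120.8 CPM in siSki8. The siPaf1 libraries were both below siCtrl, the siCdc73 libraries overlapped it, and the siSki8 library was the highest. Fosl1 fell in siPaf1 by 0.88 on the log2 scale (SE 0.25, edgeR adjusted p = 0.00802, and 0.385 without the batch), with -0.56 in batch 1 and -1.27 in batch 2, and the call was lost without the batch 2 siCtrl library (-0.71, adjusted p = 0.169) or without the batch 2 siPaf1 library (-0.57, 0.0893). For siCdc73 the value was -0.14 ± 0.25 (edgeR adjusted p = 0.685) and for siSki8 0.63 ± 0.31 (0.243). By 3'READS Fosl1 held 15 reads in all. These were 3 and 0 in siCtrl, 0 and 1 in siPaf1, 8 and 3 in siCdc73, and 0 in siSki8. Of them 3 lay at its last-exon site, so no change could be read. Fosl2, at 22.7 to 96.45 CPM in RNA-seq against 34.9 to 120.8 CPM for Fosl1, held 3654 reads by 3'READS. Why Fosl1 held so few there was not tested. Fosl1 remains in the 3'READS member counts, medians and mean z-score. Fosl1 overlaps Ccdc85b on the opposite strand, and whether the RNA-seq counting used strand is not given in the sources used here.

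Jund, the Jun family member found at high levels in resting cells, rose in RNA-seq in both knockdowns. It stood at 293.4 and 793.5 CPM in siCtrl, at 511.2 and 1557 CPM in siPaf1, at 728.8 and 1654 CPM in siCdc73 and at 1187 CPM in siSki8. The libraries split by batch, with batch 2 at more than 2 times the level of batch 1 in each of the 3 groups with both batches, and within each batch both knockdowns were above siCtrl. With the block the log2 fold change was 0.89 ± 0.22 (SE) for siPaf1 (edgeR adjusted p = 0.00203, and 0.571 without the batch) and 1.19 ± 0.22 for siCdc73 (6.65e-05, and 0.402), and neither call was lost when 1 library was left out. For siSki8 it was 0.59 ± 0.27 (0.208). Jund overlaps Gm11175 on the opposite strand.

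The 3'READS levels of Jund, nearly all at chr8:73224515 (mm9), were 400.5 and 761.8 CPM in siCtrl, 623.9 and 1045 CPM in siPaf1, 1620 and 2115 CPM in siCdc73 and 933.8 CPM in siSki8. The siCdc73 libraries stood clear of the other 5, and the siPaf1 libraries overlapped siCtrl. Jund rose in siCdc73 by 1.75 ± 0.27 (SE) on the log2 scale, 3.36-fold (edgeR adjusted p = 0.000454, and 0.215 without the batch), a call that was kept whichever library was left out, while siPaf1 gave 0.54 ± 0.27 (0.165) and siSki8 0.41 ± 0.33 (0.713). Set against each other, siPaf1 was below siCdc73 by 1.20 ± 0.27 (0.00853, and 0.493 without the batch), and without the batch 1 siCdc73 library the difference was -0.97 (0.103).

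Junb, a Jun family member without introns that can oppose Jun in growth control, was low in siCtrl and rose in both knockdowns. Its 3'READS reads numbered 2 and 8 in siCtrl, 24 and 41 in siPaf1, 20 and 77 in siCdc73 and 8 in siSki8. Every siPaf1 and siCdc73 library held more reads, and more CPM, than either siCtrl library. In CPM this was 0.30 and 0.76 in siCtrl, 3.10 and 2.71 in siPaf1, 4.34 and 5.47 in siCdc73 and 0.91 in siSki8. The log2 fold change was 2.39 ± 0.73 (SE) for siPaf1 (edgeR adjusted p = 0.032, and 0.284 without the batch), 3.14 ± 0.73 for siCdc73 (0.00606, and 0.162) and 0.59 ± 0.97 for siSki8 (0.891). The siPaf1 call was lost without either siCtrl library (1.95 and 3.18, adjusted p = 0.18 and 0.108) or without the batch 1 siPaf1 library (2.04, 0.0908), and the siCdc73 call without its own batch 2 library (3.10, 0.0638).

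Jun, the AP-1 subunit that binds DNA as a dimer with itself or with Fos, did not pass the test in any comparison. It stood at 27.3 and 46.23 CPM in siCtrl, at 24.52 and 38.96 CPM in siPaf1, at 19.76 and 34.07 CPM in siCdc73 and at 37.08 CPM in siSki8. All 3 knockdowns overlapped the range of siCtrl. The log2 fold change was -0.20 ± 0.27 (SE), -0.45 ± 0.28 and -0.31 ± 0.35 (edgeR adjusted p = 0.647, 0.267 and 0.82 with the block), and the siSki8 value without the batch was 0.01. Its 2 most used ends lie 100 bases apart (chr4:94716389 and chr4:94716289, mm9, - strand) with 0 copies of ATTTA between them, and the proximal one took 21% and 15.7% of their reads in siCtrl, 34.8% and 37.5% in siPaf1, 26.3% and 33% in siCdc73 and 24.8% in siSki8. The log2 change of this ratio was 1.37 ± 0.57 for siPaf1 (edgeR adjusted p = 0.153), 0.97 ± 0.59 for siCdc73 (0.457) and 0.57 ± 0.73 for siSki8 (0.944), so no call was made although the siPaf1 and siCdc73 shares were above siCtrl in all 4 libraries. Junb, the third gene tested, held 2 to 75 reads per library at its 2 sites, too few to read a change.

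Atf3, a stress-induced zipper protein, went up in no group by the test. Its 3'READS levels were 6.9 and 17.3 CPM in siCtrl, 7.1 and 8.86 CPM in siPaf1, 6.95 and 6.32 CPM in siCdc73 and 22.87 CPM in siSki8. In batch 1 the libraries were nearly level, and in batch 2 siPaf1 and siCdc73 were below siCtrl and siSki8 above it. The log2 fold changes were -0.54 ± 0.38 (SE), -0.82 ± 0.40 and 0.73 ± 0.46, with edgeR adjusted p of 0.345, 0.159 and 0.6.

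Egr1, a zinc finger factor of the serum response, rose in siCdc73. Its sense reads numbered 7 and 7 in siCtrl, 8 and 41 in siPaf1, 20 and 103 in siCdc73 and 11 in siSki8, or 1.05, 0.662, 1.03, 2.71, 4.34, 7.31 and 1.25 CPM. Both siCdc73 libraries were above siCtrl, while of the siPaf1 libraries only that of batch 2 was. The log2 fold change was 2.75 ± 0.71 (SE) for siCdc73 (edgeR adjusted p = 0.0119, and 0.196 without the batch), 1.10 ± 0.73 for siPaf1 (0.311) and 0.27 ± 0.93 for siSki8 (0.977). The call was lost without the batch 2 siCtrl library (1.88, adjusted p = 0.238) or the batch 2 siCdc73 library (2.57, 0.131). Of its reads, 144 lay at a site inside the coding part of exon 2, chr18:35022707 (mm9), 712 bases before the last coding base, so the gene total is for the most part not made of full-length 3' ends.

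Upstream antisense RNA (uaRNA), made from the same promoter region on the other strand, could be tested for Egr1 and Myc. Egr1 overlaps the coding gene Gm17507 on the opposite strand, and the Egr1 antisense site lies at -2.313 kb from the annotated Egr1 start. Whether these antisense reads come from Gm17507 was not tested. Egr1 antisense reads numbered 21 and 12 in siCtrl, 10 and 2 in siPaf1, 9 and 21 in siCdc73 and 13 in siSki8, which was 75% and 63.2%, 55.6% and 4.65%, 31% and 16.9%, and 54.2% of its antisense and sense reads together. All 4 siPaf1 and siCdc73 shares were below both siCtrl shares, and the share of all genes for which this held was not counted. In CPM the antisense reads were at 3.15 and 1.13 in siCtrl, 1.29 and 0.132 in siPaf1, 1.95 and 1.49 in siCdc73 and 1.48 in siSki8. Both knockdowns thus overlapped siCtrl in antisense CPM, while sense CPM went from 1.05 and 0.662 in siCtrl to 4.34 and 7.31 in siCdc73. The log2 change of antisense against sense was -2.97 ± 1.75 (SE) for siPaf1 (edgeR adjusted p = 0.369) and -2.84 ± 1.65 for siCdc73 (0.335), and no call was made. Over all genes tested, the median of this log2 change with the block was 0.48 for siPaf1 and 1.06 for siCdc73. Myc had 11 antisense reads in all, 1 and 5 in siPaf1 and 5 in the batch 2 siCdc73 library. Of 867 genes, 3.11%, 3.34% and 0.231% were called for siPaf1, siCdc73 and siSki8 with the block and 0.115%, 0.346% and 0% without it, with 0 of the 2 members called, also at an unadjusted p under 0.05, by edgeR in either fit.

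Ier2, an intronless gene, was among the members with most reads by 3'READS. It stood at 164.4 and 86.41 CPM in siCtrl, at 152.2 and 70.11 CPM in siPaf1, at 235.8 and 149.4 CPM in siCdc73 and at 113.2 CPM in siSki8. Batch 1 was above batch 2 in each group, and in each batch the order was siCdc73, siCtrl, siPaf1, with siSki8 between siCdc73 and siCtrl. Neither siPaf1 (-0.20 ± 0.27, SE, edgeR adjusted p = 0.637) nor siCdc73 (0.66 ± 0.27, 0.091) nor siSki8 (0.38 ± 0.34, 0.749) passed against siCtrl. The difference of siPaf1 from siCdc73 did, at -0.86 ± 0.27 (0.0436, and 0.637 without the batch), and was lost without the batch 2 siPaf1 library (-0.70, 0.164), the batch 1 siCdc73 library (-1.05, 0.0779) or the batch 2 siCdc73 library (-0.66, 0.425).

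Myc, which drives growth and ribosome genes, was highest in the siSki8 library in both assays. In RNA-seq it stood at 253.1 and 286.4 CPM in siCtrl, at 179.2 and 357 CPM in siPaf1, at 277.9 and 426 CPM in siCdc73 and at 502.4 CPM in siSki8. The siPaf1 and siCdc73 libraries overlapped siCtrl, and the log2 fold changes were -0.09 ± 0.23 (SE), 0.34 ± 0.23 and 0.59 ± 0.30 (edgeR adjusted p = 0.796, 0.248 and 0.262). By 3'READS the levels were 3.45 and 4.16 CPM in siCtrl, 3.61 and 5.09 CPM in siPaf1, 9.77 and 7.24 CPM in siCdc73 and 18.09 CPM in siSki8. Here both siCdc73 libraries and the siSki8 library were above siCtrl, with log2 fold changes of 1.14 ± 0.41 (SE) for siCdc73 (edgeR adjusted p = 0.0601) and 2.20 ± 0.49 for siSki8 (0.0865) and 0.20 ± 0.41 for siPaf1 (0.775). None was called, and the siSki8 value rests on 1 library of 159 reads.

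Compared with each other, siPaf1 and siCdc73 differed with the block in 1 of 5 members in RNA-seq, Fosl1 (-0.74 ± 0.25, SE, siPaf1 lower, edgeR adjusted p = 0.029, and 0.518 without the batch; 28.2% of all genes), and in 2 of 10 in 3'READS, Jund and Ier2, described above (14.4%). The Fosl1 difference was lost without the batch 2 siPaf1 library (-0.44, adjusted p = 0.222), the batch 1 siCdc73 library (-0.92, 0.096) or the batch 2 siCdc73 library (-0.61, 0.313). Fos did not differ between the knockdowns in RNA-seq, at -0.49 ± 0.30 (edgeR adjusted p = 0.228), nor in 3'READS, at -0.44 ± 0.43 (0.523). Against the siSki8 library, comparisons added after the data were seen, siPaf1 differed in 3 of 5 members in RNA-seq (Fos and Fosl2 higher, Fosl1 lower; 28.5% of all genes) and siCdc73 in 2 (Fos and Fosl2 higher; 28.6%). In 3'READS siPaf1 differed in 1 of 10 (Myc lower; 13.5%) and siCdc73 in 2 (Fos and Jund higher; 10.2%).

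On the authors' RPKM scale, which allows genes to be set against each other per length, the order was Jund, Myc, Fosl1, Fosl2, Fos in 5 of the 7 libraries, and in both siPaf1 libraries Fosl2 stood above Fosl1. In siCtrl the ranges of neighbours did not overlap, with Jund at 115 and 294.5 RPKM, Myc at 74.57 and 79.91, Fosl1 at 51.9 and 39.19, Fosl2 at 22.23 and 8.814 and Fos at 1.573 and 1.681. In siPaf1 Fosl2 (36.98 and 33.97 RPKM) and Fosl1 (36.01 and 16.28) overlapped, as they did in siCdc73 (36.81 and 26.25, and 44.78 and 31.59). Fos, the member with the largest fold change in RNA-seq, remained the lowest in level, at 8.012 and 8.548 RPKM in siPaf1 and 11.16 and 9.736 in siCdc73.

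The other immediate early genes that were called rose more often than they fell. Of 50 genes on this list, 29 were tested in RNA-seq, and with the block 12 rose and 2 fell in siPaf1, 13 rose and 4 fell in siCdc73 and 2 rose in siSki8. The share of all genes called there was 32.5%, 39.9% and 5.41% in either direction, which the siSki8 count stood near. In 3'READS, of 48 tested, 12 rose in siPaf1, 24 rose and 3 fell in siCdc73 and 0 were called in siSki8, against 18.8%, 22.5% and 0.151% of all genes. These shares are the background for the lists below as well. The median log2 fold change was 0.58, 0.55 and 0.27 in RNA-seq, against 0.02, -0.02 and 0.02 for all genes, and 0.39, 1.05 and 0.50 in 3'READS, against 0.08, -0.02 and -0.05. Without the batch, edgeR called none of the genes of this list or of the lists below, as it called none in either table (1156, 1377 and 361 genes had an unadjusted p under 0.05 in RNA-seq and 1703, 1929 and 419 in 3'READS).

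Named by their smallest p, Ptgs2, the inducible cyclooxygenase, stood in RNA-seq at 126.8 and 51.63 CPM in siCtrl, 347 and 268.7 CPM in siPaf1, 692 and 422.5 CPM in siCdc73 and 126.5 CPM in siSki8. Its log2 fold change was 1.90 ± 0.25 (SE) in siPaf1 and 2.71 ± 0.25 in siCdc73 (edgeR adjusted p = 7.33e-07 and 2.39e-09). The kinase genes Sik1 and Pim1 rose as well, Sik1 by 1.88 and 2.35 and Pim1 by 2.31 and 2.18 on the log2 scale in siPaf1 and siCdc73. In 3'READS, Errfi1, a feedback inhibitor of the EGF receptor, went from 10.35 and 14.84 CPM in siCtrl to 107 and 244.9 CPM in siPaf1 and 107.3 and 150.2 CPM in siCdc73, with 37.54 CPM in siSki8. In RNA-seq Errfi1 did not follow: its log2 fold change was -0.37 ± 0.23 (SE) in siPaf1 (edgeR adjusted p = 0.226) and -0.50 ± 0.23 in siCdc73 (0.0842), and it rose in siSki8, by 1.65 ± 0.29 (0.000743). Dusp5, a phosphatase of nuclear ERK tested by 3'READS alone, went from 0.30 and 0.189 CPM to 5.94 and 7.28 CPM in siPaf1 and 6.73 and 11.71 CPM in siCdc73, with 0.569 CPM in siSki8. In 3'READS their log2 fold changes were 3.73 ± 0.32 and 3.36 ± 0.31 for Errfi1 and 4.78 ± 0.65 and 5.24 ± 0.65 for Dusp5. Of the list, Ctgf and Klf4 fell in siCdc73 in both assays; both were picked out after their values were seen.

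**Figure D5:**
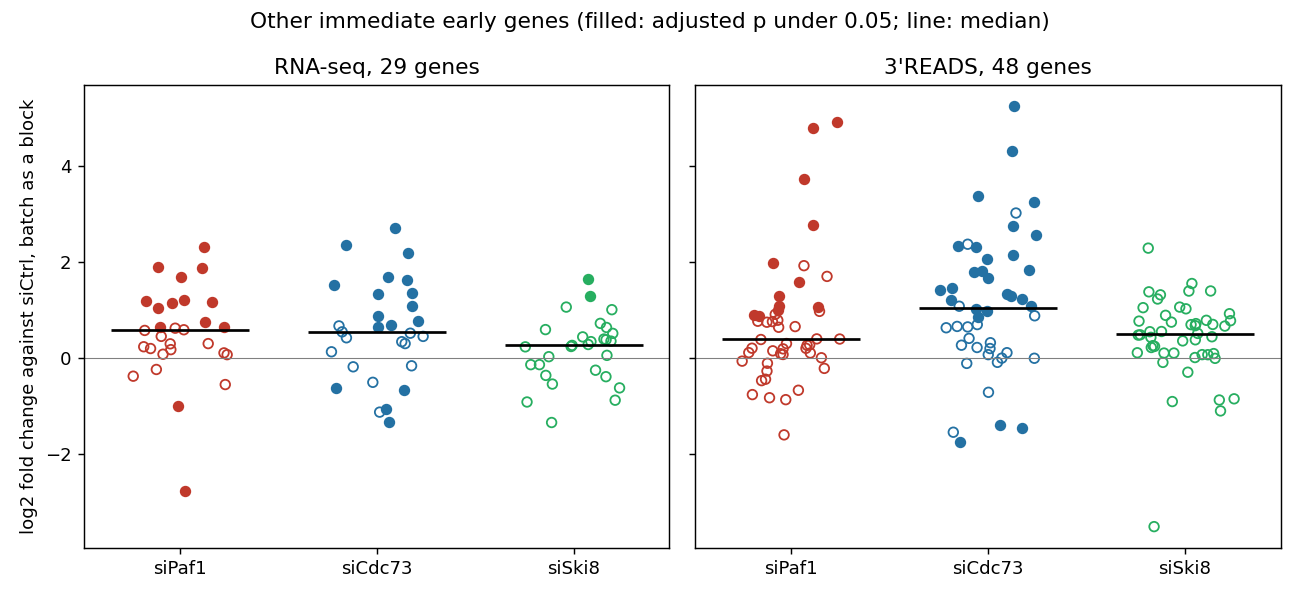
Log2 fold change against siCtrl, with the batch as a block (y axis), of the other immediate early genes tested in RNA-seq (29 genes) and 3'READS (48 genes), by knockdown (x axis); each point is a gene, filled at an adjusted p under 0.05, and the line is the median. The medians are above 0 in every knockdown, from 0.27 for siSki8 in RNA-seq to 1.05 for siCdc73 in 3'READS.

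Of the lists on the pathway that leads to these genes, those of signalling genes held no larger share of calls than all genes. Of the MAPK and SRF signalling genes, 18 were tested in RNA-seq, with 3 up and 1 down in siPaf1 and 2 up and 2 down in siCdc73, and 34 in 3'READS, with 3 up and 3 down in each; siSki8 gave 0 in both assays. All genes stood at 32.5% and 39.9% called in RNA-seq and 18.8% and 22.5% in 3'READS for siPaf1 and siCdc73. Spry2, a feedback inhibitor of receptor signalling to ERK, rose by 1.04 in siPaf1 in RNA-seq on the log2 scale, and Elk3, an ETS partner of SRF, fell by 1.42 in siCdc73 in 3'READS. Of 14 pause and pause-release factors in RNA-seq, 2 rose in siPaf1 and 6 rose and 2 fell in siCdc73, and of 23 in 3'READS 2 rose in siPaf1 and 5 rose and 2 fell in siCdc73. The pause factors called were fewer than the share of all genes in siPaf1 and more in siCdc73, in both assays. Hexim1, which holds P-TEFb inactive, rose by 1.47 ± 0.32 and 3.61 ± 0.34 in 3'READS (SE, edgeR adjusted p = 0.00523 and 1.36e-05), and Ccnt1, the cyclin of P-TEFb, by 0.79 and 1.31 in RNA-seq. Hexim1 split by batch, at 48.01 and 3.687 CPM in siCtrl, 108.7 and 14.22 CPM in siPaf1 and 401.7 and 73.12 CPM in siCdc73. Its batch 2 siPaf1 library lay below the batch 1 siCtrl library. Of the AU-rich element decay factors, 3 rose and 3 fell in siPaf1 and 3 rose and 1 fell in siCdc73 of 10 in RNA-seq, and 2 rose and 2 fell, and 2 rose and 3 fell, of 18 in 3'READS, which is above the share of all genes in RNA-seq for siPaf1, level with it in RNA-seq for siCdc73 and within 1 gene of it in 3'READS. Zfp36, which is itself an immediate early gene and binds AU-rich elements, rose by 1.05 and 1.35 in RNA-seq. Xrn1, the 5' to 3' exonuclease, fell by 2.19 and 1.84 in 3'READS, while Cnot7, a deadenylase subunit, rose by 1.88 and 1.78 there.

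Among the relatives and downstream genes some rose and others fell, and their counts are to be read against 32.5%, 39.9% and 5.41% of all genes in RNA-seq and 18.8%, 22.5% and 0.151% in 3'READS for siPaf1, siCdc73 and siSki8. The AP-1 partners and related zipper genes had 3 up and 4 down in siPaf1 and 3 up and 2 down in siCdc73 of 10 in RNA-seq, and 2 up and 2 down, and 3 up and 2 down, of 18 in 3'READS; in RNA-seq 1 also fell in siSki8. Nfe2l1, a stress-response zipper factor, rose in siCdc73 by 1.91 in RNA-seq and 1.82 in 3'READS, and Jdp2, a repressor of AP-1, fell by 1.45 and 1.88. In the Myc-Max network, of 9 tested in RNA-seq 2 rose and 1 fell in siPaf1, 4 rose and 2 fell in siCdc73 and 2 fell in siSki8, and of 13 in 3'READS 1 rose and 1 fell in siPaf1 and 2 rose and 1 fell in siCdc73. Mxd4, a Max partner that opposes Myc, rose by 1.09 and 2.27 in siPaf1 and siCdc73 and fell by 1.65 in siSki8 in RNA-seq, while Mxd3, another such partner, fell by 2.29, 1.32 and 1.72. Of the genes listed as AP-1 targets, 1 rose and 3 fell in siPaf1, 2 rose and 3 fell in siCdc73 and 2 rose and 1 fell in siSki8 of 12 in RNA-seq, and of 17 in 3'READS 2 fell in siPaf1 and 2 rose and 2 fell in siCdc73. The chemokine Ccl2 fell by 1.95 and 1.55 in RNA-seq and by 2.90 and 1.93 in 3'READS, Cd44, a hyaluronan receptor, by 1.75 and 0.68 in RNA-seq, and Plau, the urokinase protease, rose by 1.37 in siCdc73. The median of the AP-1 targets was -0.19, -0.13 and 0.01 in RNA-seq and -0.24, -0.00 and 0.34 in 3'READS.

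Stress and cell state lists are given beside these because such genes can move with immediate early genes, and their part in the changes of the members was not tested. Of 4 heat shock genes in RNA-seq 1 rose and 1 fell in siPaf1 and 2 rose in siCdc73, and of 9 in 3'READS 1 rose and 1 fell in siPaf1, 2 rose in siCdc73 and 1 rose in siSki8 (Hspb1, by 1.94). Hspe1, a mitochondrial chaperonin subunit with the smallest p of the list, fell in siPaf1 by 1.58 in RNA-seq (SE 0.24, edgeR adjusted p = 5.94e-06) and by 1.70 in 3'READS (SE 0.27, 0.00057), and in siCdc73 it was at 0.44 (0.125) and 0.53 (0.168). Hspa1a, an inducible Hsp70, rose by 1.61 ± 0.50 and 1.41 ± 0.51 in RNA-seq (SE, edgeR adjusted p = 0.0143 and 0.0271). Of the myotube markers, 3 of 7 rose in siPaf1 and 2 in siCdc73 in RNA-seq, and 3 of 10 in siPaf1 in 3'READS, where 1 rose and 3 fell in siCdc73. Their summed level ranged from 40.9 to 262.4 CPM in RNA-seq and from 58.2 to 381.7 CPM in 3'READS. Of the myoblast markers, 4 were tested in each assay. In RNA-seq 1 rose and 1 fell in siPaf1, 1 rose and 2 fell in siCdc73 and 1 fell in siSki8, and in 3'READS 1 fell in each of siPaf1 and siCdc73. Cdh15, a cadherin of muscle precursors, fell in both knockdowns in both assays. In RNA-seq the muscle filament gene Des rose in siPaf1 by 0.71 (SE 0.21, edgeR adjusted p = 0.0116), and in 3'READS it was not called there.

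By the pattern over the 7 libraries, the genes most like Fos were Cuzd1, Glis1 and Gprasp1 in RNA-seq (Pearson r of log2 CPM 0.995, 0.994 and 0.992) and Oplah, Il20rb and 1700081L11Rik in 3'READS (0.99, 0.987 and 0.984). Those most like Jun were 5730437N04Rik, Gcap14 and Mdc1 (0.998, 0.995 and 0.995), those most like Ier2 were Bola1, Dnajc25 and Vps25 (0.985, 0.983 and 0.982), those most like Egr1 were Hist3h2a, Usp54 and Cwc25 (0.972, 0.969 and 0.969) and those most like Myc in 3'READS were Prss22, Foxn1 and Ints2 (0.956, 0.955 and 0.944). In RNA-seq, Zfyve9, Gnl3 and Nmd3 were most like Myc (0.971, 0.969 and 0.962). The mean z-score of the members was followed most closely by Apex2, Zp3 and Hiatl1 in RNA-seq (0.996, 0.995 and 0.991) and by Rnf103, Vangl2 and Zc3h11a in 3'READS (0.984, 0.976 and 0.973). Within the members, Fos went with Fosl2 in RNA-seq (0.885), and in 3'READS with Junb (0.968), Jund (0.809) and Egr1 (0.715) but not with Jun (-0.185), Ier2 (0.0747) or Myc (0.156). The 7 points share batches, siRNAs and the choice of the highest among 6516 or 12569 genes, so these values describe the libraries.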

How the data were processed

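RNA was taken from C2C12 myoblasts and measured by RNA-seq and by 3'READS. As deposited, the RNA-seq file holds counts per RefSeq transcript of reads in coding regions and RPKM made by the authors from uniquely mapped reads, and the 3'READS file holds counts per pA site. The authors aligned the reads by Bowtie2 (local mode, mm9 genome) and kept those with mapping quality above 10; pA sites needed reads with extra Ts not found in the genome. The other aligner settings, and the use of strand in RNA-seq counting, are not given in the sources used here.

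In RNA-seq the transcript of highest mean count stood for its gene (15033 transcripts of 9999 genes), and in 3'READS the sum of the sense pA sites did. Counts went to edgeR 4.0.16 (R 4.3.3, limma 3.58.1): TMM, filterByExpr, quasi-likelihood F-tests of all 7 libraries without a batch term, as the study names none, with Benjamini-Hochberg adjustment over all genes tested and a threshold of 0.05. CPM are counts divided by the TMM-scaled library size. Site ratios were tested with an interaction of site and knockdown where a gene had at least 20 reads per library on average at the sites compared (sites under 5% of a gene left out), and, for uaRNA, at least 10 antisense reads. The labels say that replicate numbers mark batches, so the batch as a block was the paired fit: the batch differences of siCtrl, siPaf1 and siCdc73 correlated over genes at 0.62 to 0.748 in RNA-seq and 0.432 to 0.61 in 3'READS. Alternatives were DESeq2 1.42.0, no filter, library size alone, Fisher's exact test on pooled reads (over 1.4-fold and p under 0.01, after the study), another transcript or site set, and each library left out. Scripts were tested on simulated data. Tables and figures used Python 3.11.15, pandas 2.3.3, numpy 2.4.6, scipy 1.17.1 and matplotlib 3.10.9.

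Members and gene lists were chosen with earlier results of these data known. Beside all members, at most 3 genes of each list per assay are named, those with the smallest p of the fit with the block, and the 3 genes most correlated with a member. Of the genes this rule names, 1 is not reported here. More reads give smaller error, and counts under about 10 per library are imprecise.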

Additional observations from a re-analysis of the deposited data

Results flagged for a closer look

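These 11 differences between knockdowns passed a test of the difference itself, with the batch as a block, and are given for that reason. The comparisons with siSki8 were added after the data were seen, and siSki8 is 1 library of batch 2, so its spread is assumed to be that of the other groups. Values are log2 differences with edgeR adjusted p.

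In RNA-seq, Fos stood above siSki8 by 3.574 in siPaf1 (edgeR adjusted p = 5.07e-06) and by 4.066 in siCdc73 (9.76e-07), with siSki8 at 14 reads. Fosl2 stood above siSki8 by 1.585 in siPaf1 (0.0017) and 1.535 in siCdc73 (0.00234), the latter 1.36 (0.0759) without the batch 2 siCdc73 library. Fosl1 in siPaf1 was at -0.7434 against siCdc73 (0.029) and at -1.51 against siSki8 (0.000687).

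In 3'READS, Fos in siCdc73 was above siSki8 by 2.064 (0.0433), or 1.82 (0.0535) without the batch 1 siCdc73 library. Jund in siPaf1 was at -1.204 against siCdc73 (0.00853), and in siCdc73 it was above siSki8 by 1.337 (0.0279), or 1.18 (0.0699) without the batch 1 siCdc73 library. Ier2 in siPaf1 was at -0.8632 against siCdc73 (0.0436). Myc in siPaf1 was at -1.997 against siSki8 (0.0123). Without the batch, edgeR called none of the 11, with 6 of the 11 at an unadjusted p under 0.05, and DESeq2 called the 2 Fos differences in RNA-seq. Krt8 was highest in siCdc73 and siSki8, and its part was not tested.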

How the results depend on the processing

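The batch decided most calls. With the replicate block, which pairs libraries of a batch, RNA-seq gave 4 members called for siPaf1, 3 for siCdc73 and 1 between both. For the same comparisons 3'READS gave 3, 5 and 2, against 0 without the block in both assays. The proximal and intronic Fosl2 ends were admitted through the libraries where they are high, so no calls are counted for them. Against siSki8 the block gave 3 and 2 calls in RNA-seq and 1 and 2 in 3'READS, and it changed no other call counted here. DESeq2 called 1 member for siPaf1 and 1 for siCdc73 in RNA-seq, beside 369 and 519 of the 9999 genes listed. For siCdc73 in 3'READS it called 2, beside 628 of the 15856 genes listed, and for siPaf1 it called 0, beside 441. No filter called 1 and 1 in RNA-seq, beside 149 and 225 genes, and 0 and 0 in 3'READS, beside 20 and 22 genes. Fisher's exact test on pooled reads called 4, 3 and 4 in RNA-seq for siPaf1, siCdc73 and siSki8, beside 3091, 3516 and 3142 genes. In 3'READS it called 6, 7 and 4, beside 7073, 6739 and 4462 genes, and 7 for siPaf1 against siCdc73, beside 6925.

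Signs turned in small changes that were not called. Myc in siPaf1 in RNA-seq was 0.0188 by DESeq2 and 0.00945 with the transcript of lowest mean count; Fosl1 in siSki8 was -0.0113 by library size alone and -0.0212 by Fisher's test. In 3'READS for siSki8, the block gave -0.0641 for Fos, -0.307 for Jun and 0.376 for Ier2, DESeq2 -0.0168 and last-exon sites alone -0.00159 for Jun, and Fisher's test 0.0369 for Ier2. The cause was not tested.

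Each library was left out in turn, with and without the block. Each such fit left at most 1 library in the group that lost it, so the changes are given here without a count of calls. Log2 fold changes that crossed 0 ranged, in RNA-seq, from -0.0862 to 1.82 (Jund, siPaf1), -0.589 to 0.422 (Myc, siPaf1), -0.293 to 0.0698 (Fosl1, siCdc73) and -1.15 to 0.0781 (Fosl2, siSki8). In 3'READS for siPaf1 they ranged from -0.582 to 0.215 (Jun), -0.841 to 0.36 (Ier2), -1.12 to 0.208 (Atf3) and -0.15 to 0.455 (Myc), and for siSki8 from -0.421 to 1.12 (Fos), -0.329 to 0.441 (Jun), -0.781 to 0.909 (Egr1) and -0.539 to 0.437 (Ier2). The Jund value of -0.0862 came without the batch 2 siPaf1 library and without the block.

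The main limits are 2 batches of 1 line, 1 siSki8 library, the batch effect in Jund and Ier2, and reads under 10 in siCtrl for Fos (batch 1), Junb and Egr1. Scaling by library size alone changed the count of members called in none of the 12 comparisons of gene levels.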
